A study of Mus musculus with 9 samples.

Results

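Chromosome 12 was examined in mouse embryonic fibroblasts, connective tissue cells taken from the embryo, through the genes on it that were expressed. The members were chosen by map position and by brightness: a gene was taken where the deposited annotation mapped its symbol to chromosome 12 and its brightest transcript cluster averaged above 6 on the log2 scale over the 9 arrays. A transcript cluster is the set of array probes read as 1 gene. Of 737 symbols mapped to chromosome 12, 339 lay at or below 6 and 398 above it, and 15 of those above were left out by name, which gave 383 members among 24647 genes with a symbol. The mean over all arrays therefore chose the members, and it is given here only as a description. Batf at 6.02 and Msgn1 at 6.03 lay just inside the threshold, and 2410004P03Rik and Ap4s1, both at 5.99, lay just outside. All 3 group means were above 6 for 361 members, and the other 22 passed through the groups in which they were higher.

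The study had 3 groups of 3 culture dishes, with 1 array per dish: human APE1, mouse Ape1 and vector control. Per the labels and the design text, all 3 are male cells isogenic to C56BL/6, without a working mouse Ape1 gene and with a human APE1 transgene, and the starting line makes very little of the protein. Ape1 is the endonuclease that cuts DNA where a base has been lost, in base excision repair, and it also acts on the redox state of transcription factors. A note in the authors' deposited table puts the protein far lower in vector control than in both other groups, which was not checked here. The sources used here give neither the promoter that drove each gene nor whether a line was a clone or a pool. Nothing in the labels says that the dishes of a group came from separate lines, so p-values measure the spread between dishes. The study asked how the human and the mouse protein regulate groups of genes.

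Array medians ran from 5.64 to 5.75 on the log2 scale. Pearson's r across all transcript clusters was 0.990 to 0.993 for the 9 pairs of arrays within a group and 0.977 to 0.987 for the 27 pairs between groups, and clusters are not independent replicates. Of the fibroblast markers, 8 of 10 were above 6 on all 9 arrays, and Thy1 and Pdgfra were not. Of markers of other cells, 1 of 6 epithelial (Krt8), 1 of 4 endothelial (Pecam1) and 1 of 4 macrophage markers (Cd68) were above 6 on all arrays. In bulk RNA, a lower level per cell and fewer cells that make a transcript cannot be told apart. Precision is limited by the 3 arrays of a group. The standard error of a member's difference varied, for example 0.052 for Ahsa1, 0.11 for Klhl28 and 0.21 for Ttc9 on the log2 scale.

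Mouse chromosome 12 has its centromere at one end, and its cytogenetic bands are lettered A to F from there. It carries genes used by every cell, such as Dicer1, whose enzyme makes mature microRNAs, and Srp54a, a subunit of the particle that brings secreted proteins to the membrane. Near its far end lies the imprinted Dlk1-Dio3 domain, in which Dlk1 and Rtl1 are expressed from the paternal copy and Meg3 and a long row of microRNAs from the maternal copy. Neighbouring genes often share a promoter, when they start close together on opposite strands, or lie in 1 stretch of chromatin.

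Promoter sequences are shown for the gene with the largest rise and for genes that stood out among the falls, 250 bases before to 50 bases after the start, from RefSeq on GRCm38.p6, 5′ to 3′ on the gene's strand. Capitals mark the GC box, a binding motif of Sp1-family factors spelled GGGCGG, searched on both strands, so that CCGCCC marks it on the other strand.
Klhl28, chr12:64965487-64965786, minus strand: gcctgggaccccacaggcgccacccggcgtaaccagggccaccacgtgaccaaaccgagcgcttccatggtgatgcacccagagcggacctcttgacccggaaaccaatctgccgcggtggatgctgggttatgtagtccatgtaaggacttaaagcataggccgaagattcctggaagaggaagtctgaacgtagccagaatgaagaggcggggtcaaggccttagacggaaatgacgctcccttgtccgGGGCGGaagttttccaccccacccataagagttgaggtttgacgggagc
Atg2b, chr12:105685192-105685491, minus strand: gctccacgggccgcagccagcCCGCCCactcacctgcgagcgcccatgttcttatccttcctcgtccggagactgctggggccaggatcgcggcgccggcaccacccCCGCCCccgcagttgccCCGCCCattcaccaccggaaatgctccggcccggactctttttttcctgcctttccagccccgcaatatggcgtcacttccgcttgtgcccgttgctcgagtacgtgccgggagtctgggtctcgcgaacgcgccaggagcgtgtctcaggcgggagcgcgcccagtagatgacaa
Dlk1, chr12:109452573-109452872, plus strand: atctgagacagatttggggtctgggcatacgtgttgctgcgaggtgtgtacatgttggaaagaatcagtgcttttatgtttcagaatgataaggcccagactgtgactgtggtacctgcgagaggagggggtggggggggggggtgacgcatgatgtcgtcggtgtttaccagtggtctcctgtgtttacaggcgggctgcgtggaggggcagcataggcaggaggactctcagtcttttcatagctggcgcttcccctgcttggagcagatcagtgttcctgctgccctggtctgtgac
The window of Klhl28 shared 295 of its 300 bases with that of Fam179b (Togaram1 in RefSeq) on the opposite strand, and the window of Atg2b shared 210 with that of 4933433P14Rik (Gskip in RefSeq). The GC box count was 1 for Klhl28, 3 for Atg2b and 0 for Dlk1. Of the 312 members with a promoter in RefSeq's table, 66.3% held a GC box, against 66.6% of 8088 expressed genes of other chromosomes and 35.9% of all 27025 promoters in the table. A match is a description of the letters only.

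Most expressed genes of chromosome 12 stood higher in mouse Ape1 cells than in vector control cells. Of the 383 members, 227 rose (59.3%) and 36 fell (9.4%) at an adjusted p under 0.05 (limma, Benjamini-Hochberg over 41345 transcript clusters). The 22 members with a group mean at or below 6 held 7 of these rises and 2 of these falls. Among the 361 members with all 3 group means above 6, 220 rose and 34 fell. Over all transcript clusters 9.09% rose and 7.07% fell in this comparison, and over 10547 expressed genes mapped to other chromosomes 15.9% rose and 18% fell. The median difference of the members was 0.40 on the log2 scale and 298 members (77.8%) were above 0, against a median of -0.029 over expressed genes of other chromosomes and -0.0039 over all clusters. It was 0.25 for genes above 5. At least 2-fold differences were seen as a rise in 23 members (6.01%) and as a fall in 3 (0.783%), against 2.11% and 0.723% of all clusters and 1.08% and 1.55% of expressed genes of other chromosomes.

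In human APE1 cells the same chromosome split. Against vector control, 122 members rose (31.9%) and 78 fell (20.4%). The 22 members with a group mean at or below 6 held 2 of these rises and 7 of these falls. Among the 361 members with all 3 group means above 6, 120 rose and 71 fell. The shares over all clusters were 5.4% for a rise and 6.35% for a fall, and those over expressed genes of other chromosomes were 11.5% and 16.2%. The median difference was 0.088, against -0.013 over expressed genes of other chromosomes, and 223 members (58.2%) were above 0. It was 0.036 with array medians subtracted, 0.047 for genes above 5 and 0.15 with the medians of expressed genes of other chromosomes subtracted. At least 2-fold differences were seen as a rise in 8 members (2.09%) and as a fall in 24 (6.27%), against 0.885% and 0.953% of all clusters and 0.531% and 1.8% of expressed genes of other chromosomes. These falls include Dlk1, Asap2, Prkd1, Flrt2 and Ttc9, which passed the threshold of 6 through the other groups.

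Set directly against each other, human APE1 cells had mostly lower values than mouse Ape1 cells: 24 members rose (6.27%) and 194 fell (50.7%) in human APE1. The 22 members with a group mean at or below 6 held 0 of these rises and 7 of these falls. Among the 361 members with all 3 group means above 6, 24 rose and 187 fell. Over all clusters 4.91% rose and 7.5% fell, and over expressed genes of other chromosomes 13.5% rose and 15.8% fell. The median difference was -0.30, against 0.016 over expressed genes of other chromosomes, and 104 members (27.2%) were above 0. It was -0.14 for genes above 5. The 2 comparisons with vector control share its 3 arrays, and their values are given side by side without a test of likeness.

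Relative to each gene's mean over the 9 arrays, the median of the members was -0.036, -0.067 and -0.040 in human APE1, 0.24, 0.23 and 0.22 in mouse Ape1, and -0.16, -0.14 and -0.14 in vector control. The 3 groups did not overlap in this median. Over expressed genes of other chromosomes the same medians lay between -0.012 and 0.012 on all arrays.

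Among the 20 chromosomes with members of this kind (1 to 19 and X), chromosome 12 had the highest median difference between mouse Ape1 and vector control. The other 19 medians ran from -0.18 on chromosome 15 to 0.17 on chromosome 5. Between human APE1 and vector control it ranked second, where the others ran from -0.21 on chromosome X to 0.14 on chromosome 10. Between human APE1 and mouse Ape1 it was the second lowest, after -0.33 on chromosome X, and the highest was 0.23 on chromosome 10. These ranks are descriptions with no test and were taken at the reported setting only.

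**Figure D1:**
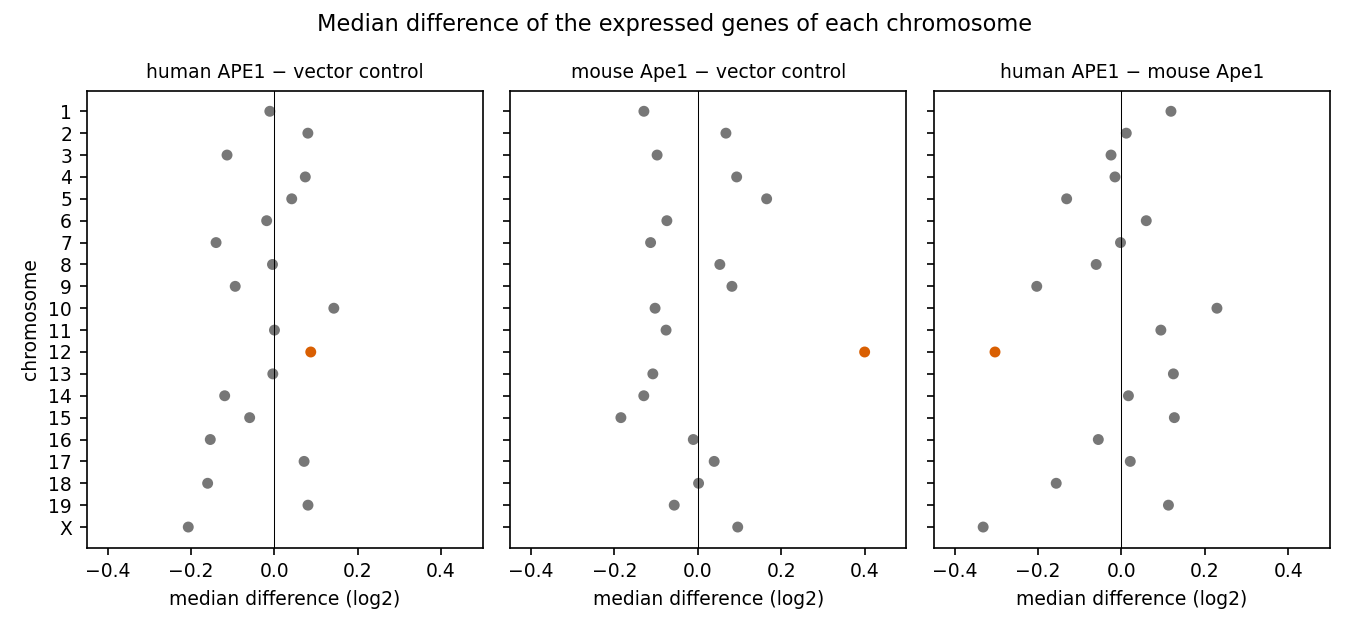
Median difference (log2) over the expressed genes of each chromosome for human APE1 against vector control (left), mouse Ape1 against vector control (middle) and human APE1 against mouse Ape1 (right), with 1 dot per chromosome. Chromosome 12, in orange, stands at 0.088, 0.40 and -0.30, and in the middle panel no other chromosome is above 0.17.

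The shift was not even along the chromosome. Band letters were given for 358 members and 25 had none. The letters did not always follow gene order. Cpsf2, labelled F1, lay at place 280 in RefSeq order, before Atg2b, labelled E. Entpd5, labelled E, lay at place 225. Band C, with 90 members, had median differences of 0.46 for human APE1 minus vector control and 0.69 for mouse Ape1 minus vector control. In it 59 members rose and 7 fell in human APE1, and 75 rose and 2 fell in mouse Ape1. Over all clusters 5.4% rose and 6.35% fell in human APE1 against vector control, and 9.09% and 7.07% in mouse Ape1, and over all members these were 31.9% and 20.4%, and 59.3% and 9.4%. Band A (82 members) had 0.25 and 0.39 in the same 2 comparisons, and band B (15 members) had 0.11 and 0.11. In band B human APE1 gave 0.061 without human APE1 replicate 3, 0.060 for genes above 5, 0.055 with array medians subtracted and 0.16 with the medians of expressed genes of other chromosomes subtracted, and mouse Ape1 gave 0.29 for genes above 7 and 0.043 with array medians subtracted.

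From band D outward the human APE1 median lay below vector control. It differed by -0.20 in band D (57 members), -0.21 in band E (41 members) and -0.17 in band F (73 members). The mouse Ape1 median lay above vector control by 0.34 in band D and 0.37 in band F, and by 0.037 in band E, a value that was -0.025 for genes above 5, 0.17 for genes above 7, -0.029 with array medians subtracted and 0.074 with the medians of expressed genes of other chromosomes subtracted. It was 0.0060 without mouse Ape1 replicate 2, 0.084 without mouse Ape1 replicate 3 and 0.060 without vector control replicate 3. For genes above 5 mouse Ape1 gave 0.10 in band D and 0.22 in band F. The human APE1 value of band F was -0.11 without human APE1 replicate 1, -0.086 for genes above 5 and -0.11 with the medians of expressed genes of other chromosomes subtracted, and that of band E was -0.37 for genes above 7. Human APE1 minus mouse Ape1 was -0.49, -0.36 and -0.62 in bands D, E and F, against -0.20, -0.037 and -0.18 in bands A, B and C. For genes above 5 it was -0.18 in band E, -0.40 in band F, -0.091 in band A and -0.060 in band C, and for genes above 7 it was -0.59 in band E and -0.31 in band A. In band B it was -0.023 with array medians subtracted and -0.017 with the medians of expressed genes of other chromosomes subtracted, -0.017 without human APE1 replicate 2, and -0.020, -0.022 and -0.065 without mouse Ape1 replicates 1, 2 and 3. In bands D and F, 0 members rose and 40 and 48 fell in human APE1 against mouse Ape1, where 4.91% of all clusters rose and 7.5% fell.

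**Figure D2:**
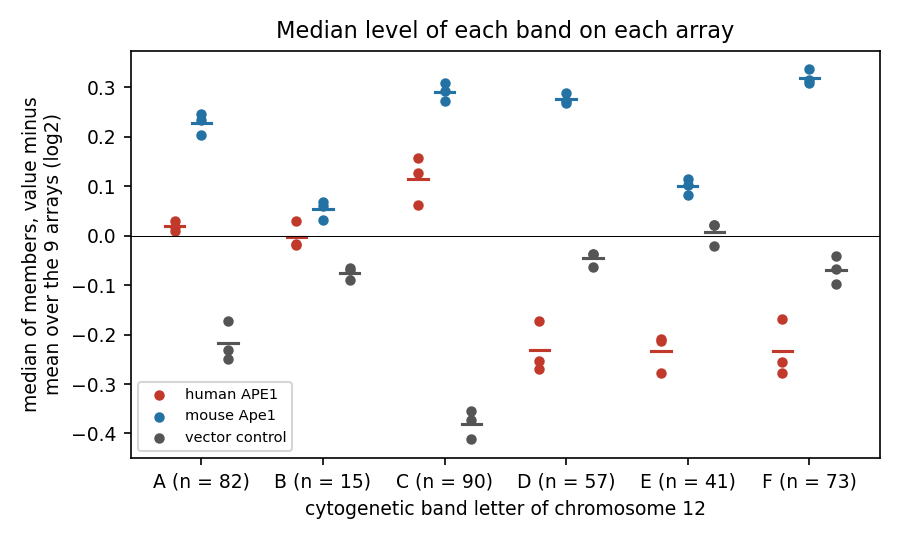
Median over the members of each band letter of the log2 value minus the gene's mean over the 9 arrays, with 1 dot per array and a bar at the mean of 3 arrays, for human APE1 (red), mouse Ape1 (blue) and vector control (grey). In band C vector control lies lowest, between -0.41 and -0.36, and in bands D and F human APE1 lies lowest, between -0.28 and -0.17.

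Single genes were then placed in the order of the RefSeq gene table, which held 371 of the members. Differences of neighbours resembled each other. With differences limited to ±1.5, the correlation between each member's difference and that of the next one was 0.54 for human APE1 against vector control. It was 0.48 for mouse Ape1 against vector control and 0.42 for human APE1 against mouse Ape1. On the other 19 chromosomes this value had medians of 0.15, 0.15 and 0.15 and reached 0.41, 0.31 and 0.41. It is a description across genes that share arrays, and neighbours include near-identical copies such as Srp54a, Srp54b and Srp54c, whose probes may share signal.

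A least-squares split of the ordered genes, chosen after the data were seen and made from the differences of human APE1 and of mouse Ape1 from vector control, gave 13 runs of neighbouring members with breaks between them. With the penalty for a new run doubled it gave 6. The runs describe the pattern and carry no test, and the counts of rises and falls in them stand beside the shares of all clusters and of all members given above for each comparison. In their median on each array, human APE1 lay wholly above vector control in 6 runs and wholly below in 7. Mouse Ape1 lay above vector control in 10 runs and below in 3. Human APE1 lay above mouse Ape1 in 1 run, below it in 9, and overlapped it in 3.

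**Figure D3:**
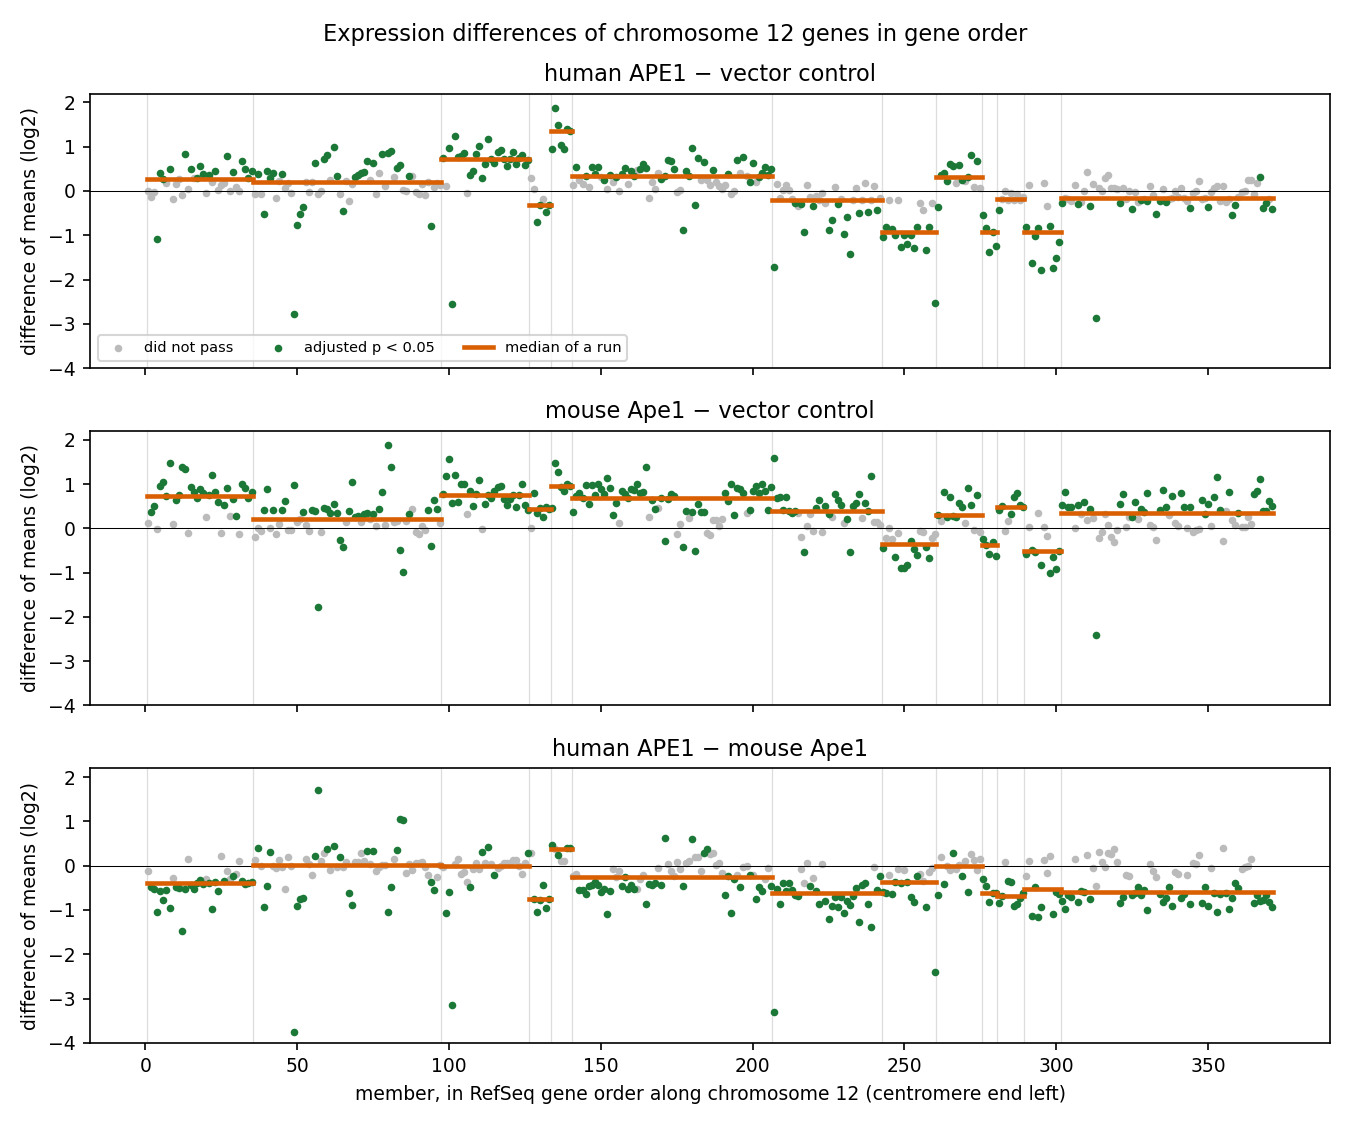
Difference of group means (log2) of 371 members in gene order along chromosome 12, with 1 dot per gene (green where the adjusted p is under 0.05) and orange lines at the median of each of 13 runs. In the top panel the run medians step between 1.34 and -0.94, and in the middle panel between 0.95 and -0.52.

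The most raised run held 7 genes in a row and started at Gm527. All 7 rose in human APE1 and all 7 rose in mouse Ape1 against vector control, with median differences of 1.34 and 0.95, and 4 were also higher in human APE1 than in mouse Ape1.

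Klhl28 encodes a Kelch-repeat protein of a family that presents substrates to ubiquitin ligases. It had 9.05, 8.95 and 8.99 in human APE1, 8.67, 8.63 and 8.55 in mouse Ape1, and 6.91, 7.37 and 7.14 in vector control. The groups did not overlap. It was 3.64-fold higher in human APE1 than in vector control (log2 difference 1.86 ± 0.11 SE, adjusted p = 4.4e-05) and 2.79-fold higher in mouse Ape1 (1.48 ± 0.11 SE, adjusted p = 9.5e-05), by limma.

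Fam179b, whose protein acts on the microtubules of cilia, had 10.44, 10.42 and 10.31 in human APE1, 10.16, 10.16 and 10.13 in mouse Ape1, and 8.92, 8.85 and 8.88 in vector control. It was 2.83-fold and 2.40-fold above vector control in human APE1 and in mouse Ape1. Klhl28 and Fam179b start within the promoter window printed above, on opposite strands.

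Fancm encodes a DNA translocase that moves along stalled replication forks in the Fanconi anaemia pathway. It had 10.35, 10.35 and 10.20 in human APE1, 9.94, 9.85 and 9.91 in mouse Ape1, and 8.92, 8.95 and 8.86 in vector control. The 3 groups stood apart, human APE1 above mouse Ape1 above vector control, and the difference between human APE1 and mouse Ape1 passed (0.40 ± 0.06 SE, adjusted p = 0.0049, limma). Prpf39, a splicing factor of the U1 particle, rose by 1.03 and 0.92 on the log2 scale in human APE1 and in mouse Ape1, and Fkbp3, a nuclear prolyl isomerase, rose by 0.94 and 0.85.

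The run from Nova1 to Mbip (29 members), closer to the centromere, was raised in both lines. Its median difference was 0.73 for human APE1 and 0.75 for mouse Ape1 against vector control, and -0.013 between them. In it 26 members rose and 1 fell in human APE1, and 27 rose and 0 fell in mouse Ape1, while 3 rose and 5 fell in human APE1 against mouse Ape1. G2e3, a ubiquitin ligase named for its expression in G2 and M phase, had 10.58, 10.46 and 10.33 in human APE1, 10.51, 10.37 and 10.37 in mouse Ape1, and 9.22, 9.26 and 9.16 in vector control. Human APE1 and mouse Ape1 overlapped and both lay above all vector control values. Baz1a, a chromatin remodelling subunit, and Arhgap5, which turns off small GTPases, rose by 0.88 and 1.02 in human APE1 and by 0.94 and 1.10 in mouse Ape1.

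The 1 member of that run that fell in human APE1 was Prkd1, protein kinase D1, which acts downstream of diacylglycerol. It had 4.60, 5.04 and 5.20 in human APE1, 8.22, 8.02 and 8.00 in mouse Ape1, and 7.59, 7.44 and 7.51 in vector control. The mouse Ape1 values lay above all those of vector control. Its human APE1 values lay below the array medians. Prkd1 is 1 of the 22 members that passed the threshold of 6 through the other groups, so no fold or p is given for it. Its neighbours on both sides in gene order were not lower in human APE1.

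The short run from Pax9 to Fbxo33 (7 members) stood the opposite way in the 2 lines, with median differences from vector control of -0.32 in human APE1 and 0.43 in mouse Ape1. Sec23a, a coat protein of vesicles that leave the endoplasmic reticulum, had 9.64, 9.56 and 9.70 in human APE1, 10.72, 10.69 and 10.66 in mouse Ape1, and 10.35, 10.30 and 10.36 in vector control. It fell in human APE1 (-0.70 ± 0.06 SE, adjusted p = 0.00023) and rose in mouse Ape1 (0.35 ± 0.06 SE, adjusted p = 0.0046), by limma, against vector control.

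The long run from Rps29 to Synj2bp (66 members) had median differences of 0.33 in human APE1 and 0.69 in mouse Ape1. In it 36 members rose and 2 fell in human APE1, and 50 rose and 3 fell in mouse Ape1. Pole2, a subunit of DNA polymerase epsilon, had 9.48, 9.36 and 9.44 in human APE1, 10.04, 10.06 and 10.08 in mouse Ape1, and 9.13, 9.06 and 9.06 in vector control. All 3 groups stood apart, with mouse Ape1 highest. Daam1, a formin that builds actin filaments, rose by 1.39 in mouse Ape1 and by 0.52 in human APE1.

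**Figure D4:**
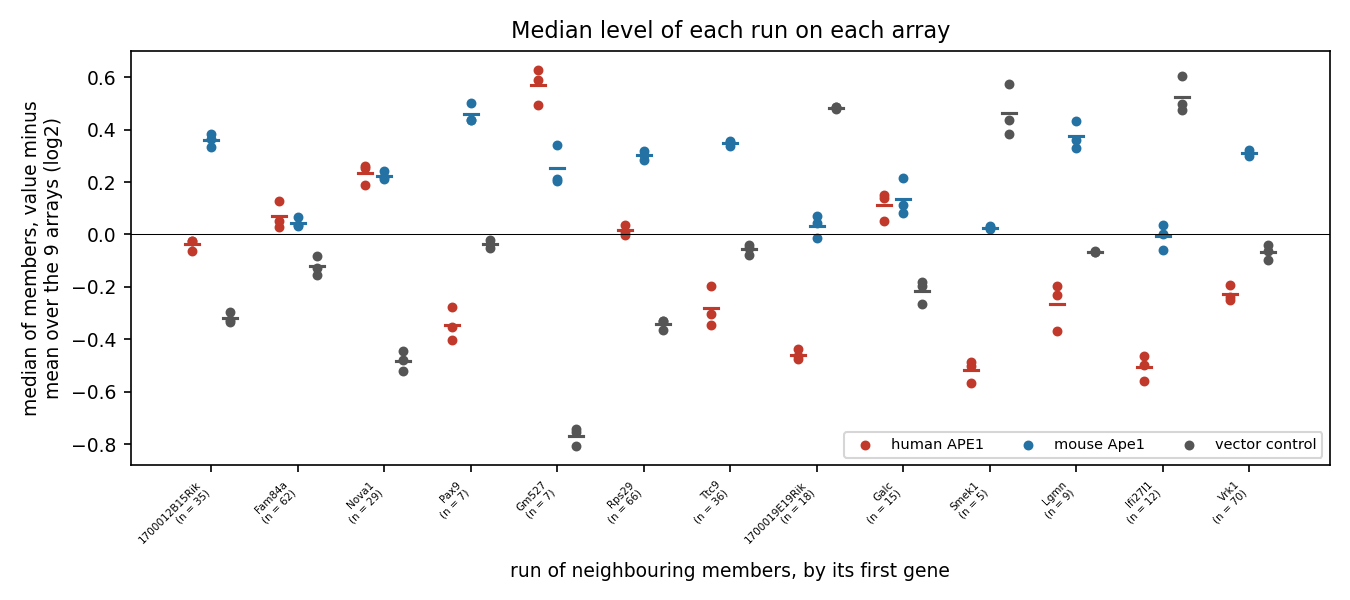
Median over the members of each of the 13 runs of the log2 value minus the gene's mean over the 9 arrays, with 1 dot per array and a bar at the mean of 3 arrays, for human APE1 (red), mouse Ape1 (blue) and vector control (grey). Runs are named by their first gene. Vector control is lowest in the run from Gm527, between -0.81 and -0.74, and highest in the runs from 1700019E19Rik to Flrt2, from Smek1 to Cpsf2 and from Ifi27l1 to Papola, between 0.38 and 0.61.

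Lower values came in 3 runs in the outer part of the chromosome. The run from 1700019E19Rik to Flrt2 (18 members) had median differences from vector control of -0.93 in human APE1 and -0.36 in mouse Ape1. The run from Smek1 to Cpsf2 (5 members) had -0.94 and -0.38, and all 5 of its members fell in both lines. The run from Ifi27l1 to Papola (12 members) had -0.93 and -0.52. Between them lay runs without that fall in both lines: Galc to A630072L19Rik (15 members) at 0.32 and 0.30, and Lgmn to Ddx24 (9 members) at -0.19 and 0.47.

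Dicer1, the ribonuclease that cuts microRNA precursors, had 8.64, 8.71 and 8.70 in human APE1, 9.83, 9.80 and 9.80 in mouse Ape1, and 10.24, 10.36 and 10.31 in vector control. The 3 groups stood apart, with vector control highest. It was 3.07-fold lower in human APE1 than in vector control (-1.62 ± 0.06 SE, adjusted p = 2.9e-06) and 1.41-fold lower in mouse Ape1 (-0.49 ± 0.06 SE, adjusted p = 0.00079), by limma. Of the 8 microRNA genes among the members, 0 passed in any comparison by limma, and the number with an unadjusted p under 0.05 was 2 for human APE1 against vector control, 1 for mouse Ape1 against vector control and 1 for human APE1 against mouse Ape1. Over all clusters 24.4%, 28.4% and 23.6% had an unadjusted p under 0.05 in these comparisons. The arrays read microRNA genes as transcript clusters, and mature microRNAs were not measured.

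Glrx5, a mitochondrial protein of iron-sulphur cluster assembly, had 9.61, 9.48 and 9.63 in human APE1, 10.58, 10.53 and 10.42 in mouse Ape1, and 11.44, 11.36 and 11.25 in vector control. Atg2b, which moves lipid to the growing autophagosome, had 8.08, 8.36 and 8.24 in human APE1, 9.31 on all 3 arrays of mouse Ape1, and 9.97, 9.93 and 10.00 in vector control. Both genes fell in both lines and lay lowest in human APE1, with Glrx5 3.43-fold and Atg2b 3.34-fold below vector control. 4933433P14Rik, which shares its promoter window with Atg2b, fell by 1.51 in human APE1 and by 0.92 in mouse Ape1.

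In the same runs Papola, the main poly(A) polymerase, fell by 1.15 in human APE1 and 0.50 in mouse Ape1. Cpsf2, a subunit of the complex that cleaves pre-mRNA at its 3′ end, fell by 1.25 and 0.62. Atxn3, a deubiquitinase, had 7.76, 7.65 and 7.88 in human APE1, 8.67, 8.54 and 8.51 in mouse Ape1, and 9.10, 9.28 and 9.06 in vector control. Ahsa1, which activates the chaperone HSP90, fell by 1.21 and 0.84, Pomt2, an O-mannosyltransferase, by 1.27 and 0.89, Tmed8 by 1.00 and 0.89, and Bdkrb2, the bradykinin B2 receptor, by 0.79 and 1.02.

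Flrt2, a membrane protein of cell adhesion and guidance at the end of the first of these runs, had 1 group apart. Its values were 5.63, 5.56 and 5.58 in human APE1, 8.10, 8.00 and 7.90 in mouse Ape1, and 8.24, 8.01 and 8.11 in vector control. Mouse Ape1 and vector control overlapped, and human APE1 lay below both. The human APE1 values lay below the array medians, and Flrt2 passed the threshold of 6 through the other groups, so these values are a description.

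The outermost run, from Vrk1 to Sp4 (70 members), had median differences from vector control of -0.15 in human APE1 and 0.34 in mouse Ape1. In it 1 member rose and 18 fell in human APE1, and 36 rose and 1 fell in mouse Ape1. Akt1, the kinase of growth factor signalling, had 10.31, 10.37 and 10.40 in human APE1, 11.25, 11.31 and 11.27 in mouse Ape1, and 10.74, 10.74 and 10.72 in vector control. The groups stood apart, with mouse Ape1 highest and human APE1 lowest. Vrk1, a nuclear kinase of cell cycle entry, differed from vector control by -0.27 in human APE1 and 0.52 in mouse Ape1, both past the threshold. Yy1, a zinc finger factor, rose by 0.60 in mouse Ape1 and differed by -0.0020 ± 0.06 (SE) in human APE1.

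The member of that run that fell in mouse Ape1 was Dlk1, a Notch-like membrane protein that holds back adipocyte differentiation. It had 5.96, 5.82 and 5.95 in human APE1, 6.20, 6.43 and 6.44 in mouse Ape1, and 8.51, 8.76 and 9.05 in vector control. The 3 groups did not overlap, with vector control highest. The human APE1 mean was below 6 and Dlk1 passed the threshold through the other groups, so these values are a description. In the authors' deposited table, from another summary of the arrays, its log2 means were 5.15 in human APE1, 6.08 in mouse Ape1 and 8.85 in vector control. Rtl1, the other protein-coding member of the imprinted domain, had 6.59, 6.44 and 6.64 in human APE1, 6.11, 6.44 and 6.21 in mouse Ape1, and 6.17, 6.56 and 6.71 in vector control, with all 3 groups overlapping and no comparison past the threshold. Of the 7 genes listed for the domain only these 2 were members. Meg3, Rian, Mirg, Dio3 and Begain were not members, and their levels are not given here.

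The run nearest the centromere, from 1700012B15Rik to Nbas (35 members), had median differences from vector control of 0.26 in human APE1 and 0.73 in mouse Ape1. Ncoa1, a coactivator of nuclear receptors, had 7.81, 7.78 and 7.71 in human APE1, 9.28, 9.17 and 9.25 in mouse Ape1, and 7.78, 7.73 and 8.05 in vector control. Human APE1 and vector control overlapped and mouse Ape1 lay above both, 2.60-fold above vector control. Rhob, a small GTPase of the actin cytoskeleton, had 9.21, 9.40 and 9.80 in human APE1, 10.49, 10.56 and 10.32 in mouse Ape1, and 9.25, 9.30 and 9.23 in vector control. It rose by 1.20 in mouse Ape1, and its human APE1 values were the most spread. Dnajc27, Itsn2 (an endocytic scaffold), Gen1 (a Holliday junction resolvase) and Smc6 (of the SMC5/6 repair complex) rose by 1.47, 1.35, 1.00 and 0.90 in mouse Ape1 and by 0.50, 0.82, 0.67 and 0.49 in human APE1. Dnmt3a, a de novo DNA methyltransferase, rose by 0.73 in mouse Ape1 and differed by 0.17 ± 0.08 (SE) in human APE1, which did not pass.

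In the next run, from Fam84a to Stxbp6 (62 members), the arrays of human APE1 and mouse Ape1 overlapped in the run's median, which differed from vector control by 0.21 in human APE1 and 0.22 in mouse Ape1, while single genes stood far from it. Asap2, which acts on Arf GTPases at the membrane, had 4.64, 4.68 and 4.74 in human APE1, 8.43, 8.50 and 8.40 in mouse Ape1, and 7.33, 7.48 and 7.60 in vector control. The human APE1 values lay below those of both other groups and below the array medians of 5.64 to 5.75. Asap2 is 1 of the 22 members that passed the threshold of 6 through the groups in which they were higher, so its values are given as a description with no fold or p. Id2, an inhibitor of basic helix-loop-helix factors, had 10.35, 10.30 and 10.40 in human APE1, 8.54, 8.77 and 8.62 in mouse Ape1, and 10.56, 10.35 and 10.37 in vector control. Human APE1 and vector control overlapped, and mouse Ape1 was 3.45-fold below vector control (-1.78 ± 0.08 SE, adjusted p = 1.1e-05, limma).

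Also in that run, Ahr, the receptor for dioxin-like ligands, had 9.59, 9.72 and 9.67 in human APE1, 8.66, 8.58 and 8.56 in mouse Ape1, and 9.16, 9.04 and 9.04 in vector control. It rose in human APE1 (0.58 ± 0.06 SE, adjusted p = 0.00098) and fell in mouse Ape1 (-0.48 ± 0.06 SE, adjusted p = 0.0019), by limma, with no overlap between the 3 groups. Tspan13, a tetraspanin, fell by 0.99 in mouse Ape1 and differed by 0.032 ± 0.09 (SE) in human APE1. Ttc15, a subunit of a vesicle tethering complex, rose by 1.00 in human APE1 and 0.55 in mouse Ape1, and Atxn7l1 rose by 0.90 and 1.38.

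The run from Ttc9 to Ttll5 (36 members) had median differences from vector control of -0.20 in human APE1 and 0.39 in mouse Ape1, and in it 0 members rose and 30 fell in human APE1 against mouse Ape1. Ttc9, a protein with tetratricopeptide repeats, had 4.94, 4.08 and 4.59 in human APE1, 7.80, 7.92 and 7.78 in mouse Ape1, and 6.36, 6.42 and 5.96 in vector control. The 3 groups did not overlap, with vector control between the others. The human APE1 values lay below the array medians, and Ttc9 passed the threshold of 6 through the other groups, so these values too are a description. Jdp2, a repressor of AP-1, rose by 1.18 in mouse Ape1. Mlh3, a mismatch repair protein, fell by 0.50 in human APE1 and rose by 0.77 in mouse Ape1. Entpd5, a nucleotidase of the endoplasmic reticulum, fell by 0.88 and rose by 0.32, Npc2, which carries cholesterol out of lysosomes, fell by 0.97 in human APE1, and Ltbp2, a matrix protein of microfibrils, fell by 1.42 in human APE1 and by 0.53 in mouse Ape1.

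**Figure D5:**
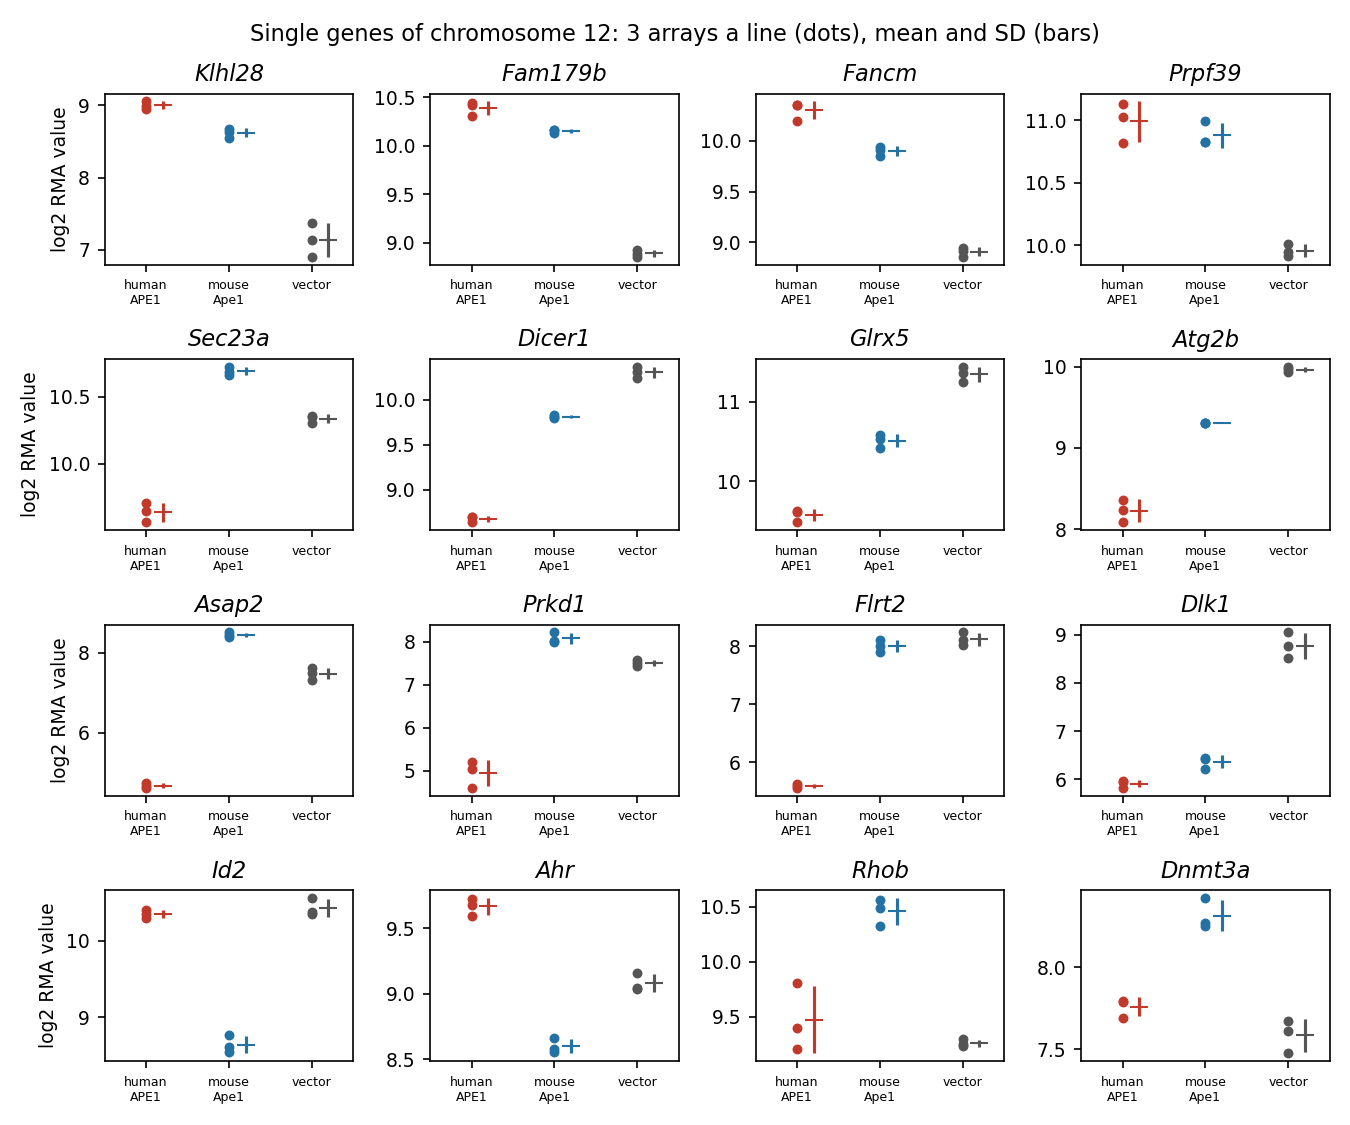
Log2 RMA values of 16 members, with 1 dot per array and the mean and SD of 3 arrays beside them, for human APE1 (red), mouse Ape1 (blue) and vector control (grey), each panel on its own axis. Klhl28, Fam179b, Fancm and Prpf39 lie lowest in vector control, Dicer1, Glrx5 and Atg2b lie highest there, Asap2, Prkd1 and Flrt2 are lowest in human APE1, and Id2 is lowest in mouse Ape1.

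The members were also sorted by known function instead of position. Each list is read beside the medians of all clusters, which were 0.016 for human APE1 against vector control, -0.0039 for mouse Ape1 against vector control and 0.021 for human APE1 against mouse Ape1. The shares called over all clusters, 9.09% for a rise and 7.07% for a fall in mouse Ape1 against vector control, 5.4% and 6.35% in human APE1 against vector control, and 4.91% and 7.5% in human APE1 against mouse Ape1, stand beside the counts of every list. Over all 383 members the shares were 59.3% and 9.4%, 31.9% and 20.4%, and 6.27% and 50.7% in the same comparisons, and nothing particular to a list was tested. Of 19 members for DNA replication, repair and cell division, 18 rose and 1 fell in mouse Ape1 against vector control (median 0.64), while 8 rose and 7 fell in human APE1 (median 0.19), Fancm and Mlh3 among them. Of 12 chromatin and transcription regulators, 9 rose and 1 fell in mouse Ape1 (median 0.59), and 2 rose and 3 fell in human APE1 (median -0.13).

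Of 18 RNA processing members, 11 rose and 4 fell in mouse Ape1 (median 0.33), and 7 rose and 5 fell in human APE1 (median -0.067), and Dicer1, Cpsf2, Papola and Snw1 (a splicing and transcription cofactor) were the 4 that fell in mouse Ape1. Of 11 members for translation and protein folding, 9 rose and 1 fell in mouse Ape1 (median 0.45), and 4 rose and 3 fell in human APE1 (median 0.14). Eapp, listed there but known as a partner of E2F factors, rose by 1.18 in human APE1, the ribosomal gene Rps7 by 0.73, and Ahsa1 was the member that fell in mouse Ape1. Of 8 ubiquitin and proteasome members, 7 rose and 1 fell in mouse Ape1 (median 0.45), and 3 rose and 2 fell in human APE1 (median -0.18).

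Of 19 members for membrane traffic and glycosylation, 16 rose and 0 fell in mouse Ape1 (median 0.45), and 7 rose and 6 fell in human APE1 (median 0.15). Of 26 signalling and cytoskeleton members, 23 rose and 1 fell in mouse Ape1 (median 0.61), and 12 rose and 8 fell in human APE1 (median 0.21), and the member that fell in mouse Ape1 was Rhoj, a small GTPase, by 0.43. The falls in human APE1 include Prkd1, which passed the brightness threshold through the other groups, so its fall is a description only. Of 13 metabolic enzymes, 7 rose and 2 fell in mouse Ape1 (median 0.25), and 2 rose and 4 fell in human APE1 (median -0.17), and the 2 that fell in mouse Ape1 were Glrx5 and Acot1.

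The 15 DNA-binding transcription factors had 8 that rose and 3 that fell in mouse Ape1 (median 0.25), and 5 that rose and 1 that fell in human APE1 (median 0.17). Between human APE1 and mouse Ape1, 4 of them rose and 4 fell (median 0.029). The rises in human APE1 against mouse Ape1 included Id2, Ahr and Zbtb1, and the falls included Jdp2, Sp4 and Osr1. Only 5 secreted and matrix proteins were members: 1 rose and 2 fell in mouse Ape1 (Sdc1 by 0.59, Ltbp2 and Pxdn), and 2 fell in human APE1 (Flrt2 and Ltbp2). The 2 members listed for the imprinted domain had 1 fall, of Dlk1, in each comparison with vector control. Flrt2 and Dlk1 passed the brightness threshold through the other groups, a choice that favours a fall in human APE1. Their falls in human APE1 are therefore a description only, and nothing about these lists is drawn from them.

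The median difference also varied with brightness. In the dimmest 128 members, with means up to 7.79, the median difference was 0.020 for human APE1 against vector control, 0.14 for mouse Ape1 against vector control and -0.10 for human APE1 against mouse Ape1. In the 127 members of middle brightness it was 0.12, 0.43 and -0.45, and in the brightest 128 it was 0.19, 0.52 and -0.41. RMA, the summary the authors used, is known to compress the differences of dim clusters, and its part in this was not tested.

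Genes whose windows overlap on opposite strands gave 25 pairs among neighbouring members. The gap between the 2 genes of a pair had medians of 0.25, 0.18 and 0.22 in the 3 comparisons in the order above, against 0.28, 0.31 and 0.27 over 311 pairs of members next to each other among those with a promoter in the table, which include these 25. No test was made of that difference.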

How the data were processed

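RNA from 9 dishes, 3 per group, was read on Affymetrix arrays. Per the labels, the authors deposited log2 RMA values from Expression Console (core-exon analysis). RMA brings arrays to 1 distribution, so a shift of most transcripts in 1 group is not measured. Per the file headers, the authors' table gives log2 group means, linear ratios between groups and unadjusted p-values of their 3-group test, and it supplied the symbols and map positions. Per the submitters' processing notes Partek was used, with no version. Neither array design nor genome build is given in the sources used here. Annotation text ended after 87 characters, so that 39 expressed genes that RefSeq places on chromosome 12 had no usable map and are no members, and 26 symbols turned into dates or numbers were restored. Each symbol was represented by its brightest of 41345 clusters (35 members have several). RefSeq (GRCm38.p6) gave the gene order of 371 members, and coordinates only for printed promoters.

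All clusters were fitted in R 4.3.3 with limma 3.58.1 (lmFit, eBayes, two-sided; 3 group means, 6 residual and 2.07 prior degrees of freedom). P-values were adjusted by Benjamini-Hochberg over all clusters within each of 3 contrasts, and rises and falls are those with an adjusted p under 0.05. The script was tested on simulated data. Runs and correlations of neighbours came from differences limited to ±1.5, with at least 5 genes a run. Named genes were the 10 largest rises and 10 largest falls per contrast among members that passed with no overlap between groups, up to 3 members per list, and the genes at the threshold. Predicted and non-coding symbols were left out of the naming. Other genes named in the text were chosen after their values were seen. The members and the 11 lists were chosen with earlier results of these data known. The lists were DNA replication, repair and cell division; chromatin and transcription regulators; RNA processing; translation and protein folding; ubiquitin and proteasome; membrane traffic and glycosylation; metabolic enzymes; signalling and cytoskeleton; DNA-binding transcription factors; secreted and matrix proteins; and the imprinted Dlk1-Dio3 domain. Apex1 is not analysed here, and some genes that the naming rule picks are not reported here. Replicate numbers were checked for pairing: same-numbered arrays of different groups correlated at r = -0.07 to 0.10 in their deviations (9 pairs), and the main model has no block. Further software was Python 3.11.15, numpy 2.4.6, pandas 2.3.3 and matplotlib 3.10.9.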

Additional observations from a re-analysis of the deposited data

How the results depend on the processing

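The counts of members that rose or fell kept within 1.5 times the reported ones under the 22 alternatives run per result, with 100 to 140 rises and 61 to 92 falls for human APE1 minus vector control, 197 to 251 and 31 to 47 for mouse Ape1 minus vector control, and 16 to 30 and 176 to 217 for human APE1 minus mouse Ape1. Some alternatives held more or fewer genes than the 383 members, so like counts are not like shares. Adding genes to the same fit can only keep or raise a count. In mouse Ape1 minus vector control, 242 of 513 genes above 5 rose and 47 fell. Of 304 genes above 7, 211 rose and 31 fell, against 227 and 36 of the 383 members. With 1 array left out these counts were 107 to 119, 61 to 75, 202 to 228, 32 to 37, 16 to 26 and 176 to 195, in the same order. The replicate number as a block gave 110, 67, 214, 35, 18 and 178. No sign of pairing by number was seen, as 3 of 9 arrays correlated best with an array of their own number. With so few arrays this check cannot exclude pairing.

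The median differences kept their sign but moved by more than the spread between arrays in these settings, given first for human APE1 and then for mouse Ape1 over vector control and last for human APE1 over mouse Ape1. They were 0.047, 0.25 and -0.14 for genes above 5, 0.13, 0.46 and -0.40 for genes above 7, 0.036, 0.33 and -0.29 with array medians subtracted, 0.073, 0.36 and -0.25 with quantile normalization run again, and 0.15, 0.44 and -0.28 with the medians of expressed genes of other chromosomes subtracted. In the authors' deposited table mouse Ape1 minus vector control was 0.43 and human APE1 minus mouse Ape1 -0.33. In 2 alternatives chosen after seeing the data, human APE1 minus mouse Ape1 was -0.34 with genes placed by RefSeq alone added and -0.37 with protein-coding members only, where mouse Ape1 minus vector control was 0.42. With 1 array left out the medians ran from 0.079 to 0.12, from 0.39 to 0.41 and from -0.34 to -0.28. The cause was not tested. In band E the median of mouse Ape1 minus vector control turned to -0.025 for genes above 5 and to -0.029 with array medians subtracted.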

Other observations

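Some expressed genes of chromosome 12 were not members. Of 54 such genes (15 left out by name and 39 placed by RefSeq alone), 50 fell within a run and 4 between runs. In the run from Rps29 to Synj2bp, 15 of 15 of them were above 0 in human APE1 minus vector control and 15 of 15 in mouse Ape1 minus vector control, with medians of 0.40 and 0.70. In the run from 1700019E19Rik to Flrt2, 5 of 5 were below 0 in both comparisons, with medians of -1.06 and -0.87. In the run from Nova1 to Mbip, 2 such genes had medians of 0.52 and 0.013, and in the run from Fam84a to Stxbp6, 9 had -0.091 and 0.30, against 0.21 and 0.22 for the members. In the run from 1700019E19Rik to Flrt2 Sel1l, of the degradation pathway of the endoplasmic reticulum, fell by 1.06 and 1.02, Gstz1, of tyrosine breakdown, fell by 1.22 and 0.87, and Sptlc2, of sphingolipid synthesis, fell by 0.93 and 0.71 (limma, all past the threshold). These genes were read on the same arrays and fitted with the members, so they are no second experiment.

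The 339 genes of chromosome 12 at or below the threshold had median differences of -7e-05 for human APE1 over vector control, -0.042 for mouse Ape1 over vector control and 0.040 for human APE1 over mouse Ape1. The 15 genes left out by name had 0.062, 0.33 and -0.18, and the 39 placed by RefSeq alone had 0.077, 0.35 and -0.35.

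In the authors' deposited table, which came from another summary of the arrays, the medians of the run that starts at Gm527 were 1.39 in human APE1 and 1.00 in mouse Ape1 over vector control, and those of the run from Ifi27l1 to Papola were -0.92 and -0.52.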
